A study of Mus musculus with 6 samples.

Results

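The organic ion and ATP-binding cassette (ABC) transporter genes of the mouse liver were followed across a sham group, a premetastatic niche (PMN) group and a liver metastasis group. They were all rows of the count table whose symbols begin with Slc22a, Slco, Slc47a, Abca, Abcb, Abcc, Abcd or Abcg and a digit, which gave 66 genes. The bile salt pump Abcb11 and the uptake transporter Slco1b2 were left out by name, and 64 of the 20140 listed genes remained. The Slc22a family contributed 17 genes, Slco 7, Slc47a 1, Abca 12, Abcb 8, Abcc 9, Abcd 4 and Abcg 6. Bulk RNA was sequenced from whole livers taken on day 21, with 2 livers per group. The sample titles name the groups only as control, intra-C and intra-S. The groups were assigned from the paper's account of its models: sham mice were operated on without tumor cells (their labels give PBS where the others give CT26), PMN mice carried CT26 cells implanted in the cecum, and metastasis mice had CT26 cells injected into the spleen. CT26 is a colorectal carcinoma line of BALB/c origin, and both models were set up in BALB/c mice. The mice were 6 to 10 weeks old when bought. The route of implantation therefore changed together with the disease stage, and any tumor cells in a liver carried the same mouse genes that were counted. Nothing in the labels says which litter or cage a liver came from, so p-values measure only the spread between these livers.

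SLC22 proteins carry organic cations, organic anions, carnitine and ergothioneine across the plasma membrane. The organic anion transporting polypeptides, encoded by Slco genes, take up bile acids, hormones and drugs from the blood, and the multidrug and toxin extrusion protein of Slc47a1 passes organic cations on into bile. ABC transporters use ATP to move their cargo: in hepatocytes, members of the B, C and G families pump phospholipid, conjugates, sterols and drugs across the canalicular or the sinusoidal membrane, A family members move lipids, D family members feed fatty acids into peroxisomes, and some B family members work in mitochondria.

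Each liver had between 32838321 and 43368309 counts. At these depths the 3 counts that a count of 0 still allows corresponded to 0.0679 to 0.0928 CPM, the counts scaled to a common library total, a limit that covers counting error only. CPM values use library totals scaled by edgeR's TMM method, with factors from 0.884 to 1.14. The 2 livers of each group were compared by chi-square to look for a library deposited more than once, and none was found. The value per degree of freedom was 27.2 in the sham group, 80.9 in the PMN group and 372 in the metastasis group, against counting noise alone. The summed CPM of 11 listed hepatocyte markers was 126706 and 132742 in sham, 129734 and 174970 in PMN and 158309 and 206290 in metastasis livers. Most of this sum was albumin (Alb, 84369 to 156594 CPM). Of the listed markers, Apob was called higher in PMN livers, and in metastasis livers Serpina1a and Ahsg were called higher and Cyp2e1 lower (3.18-fold). All 12 neutrophil markers were higher in both groups than in sham livers, their sum rising from 3.87 and 5.12 CPM to 297 and 653 CPM in PMN and 1110 and 439 CPM in metastasis livers. Xist lay between 660 and 1092 CPM in all 6 livers.

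Most of the transporter genes were present in the sham liver. By the deposited TPM values, a unit that allows for the length of each gene, 47 of the 64 averaged at least 1 TPM in the sham livers, 29 at least 10 TPM and 6 at least 100 TPM. Abcd3, which encodes the peroxisomal transporter for branched-chain fatty acids and bile acid precursors, was the most abundant at 299 TPM in both sham livers. Slc22a26 (139 and 159 TPM), Abcg5 (120 and 126 TPM), Slco1a4 (114 and 127 TPM) and Slc22a18 (119 and 114 TPM) were also above 100 TPM. In their own families, Slc47a1 stood at 91.7 and 92.9 TPM, Abcb4 at 87.7 and 90.0, Abcc3 at 68.6 and 60.6, and Abca8a at 60.7 and 57.7. At the other end, 17 genes averaged under 1 TPM and 8 under 0.1 TPM in the sham livers.

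The summed level of all 64 genes was highest in sham, lower in PMN and lowest in metastasis livers, without overlap between the groups. It was 2152 and 2204 TPM in sham, 1414 and 1475 TPM in PMN, and 884 and 1026 TPM in metastasis livers. A few abundant genes carry such a sum, and the TPM of a gene also depends on what other genes take up. By family, the Slc22a sum went from 742 and 780 TPM in sham to 502 and 531 TPM in PMN and 217 and 366 TPM in metastasis livers, and the Abcd sum from 350 and 362 to 122 and 166 and to 89.3 and 105 TPM. The Abca family departed from this order, with 199 and 187 TPM in sham, 247 and 254 TPM in PMN, and 168 and 156 TPM in metastasis livers. The Slco sum was 179 and 197 TPM in sham and 71.9 and 74.4 TPM in PMN livers, whereas the metastasis livers lay far apart at 144 and 62.0 TPM.

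Which of these genes differed was tested by quasi-likelihood in edgeR, in 1 fit over all 6 livers, with Benjamini-Hochberg adjustment over the 16370 genes tested and a threshold of 0.05. Of the 64 genes, 60 passed the filter on low counts, while Abca4, Abcc12, Abcg4 and Slc22a12 did not. Both comparisons with the sham group use the same sham livers. In PMN livers, 4 transporter genes were higher (Abca13, Abca8b, Abca9 and Abcc5) and 3 were lower (Slc22a29, Slc22a4 and Abcd3). These were 6.67% and 5.00% of those tested, where 4.92% of all genes were called higher and 2.38% lower (7.3% in either direction). Abca13, with 0 counts in both sham livers, passed the filter only through the tumor groups, so its calls in both comparisons could only come out higher and are no support for a count. The median log2 fold change was -0.06 for the transporters and 0.01 for all genes. In metastasis livers, 5 transporter genes were higher (Abca13, Abca8b, Slco2a1, Abcc9 and Abcg1) and 15 were lower, among them Slc22a29, Slc22a30, Slc22a27, Slc22a18, Slc22a5, Slco2b1, Slc47a1, Abca2, Abcb1a, Abcb6, Abcc3, Abcc6, Abcd3 and Abcg5. The higher genes were 8.33% of those tested against 6.78% of all genes, and the lower genes were 25.0% against 3.95% (10.7% of all genes in either direction). The median log2 fold change was -0.55 for the transporters and 0.04 for all genes. Groups that do not overlap are common with 2 livers each: in PMN livers 21 transporter genes lay above and 27 below both sham livers, where 34.4% and 34.0% of all genes did, and in metastasis livers 16 lay above and 33 below, where 30.4% and 30% did. Because whole liver was sequenced, fewer cells of a type and less RNA per cell cannot be told apart.

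The calls rested on few livers. Without sham replicate 1 or sham replicate 2, edgeR called 0 transporter genes in either direction in both comparisons, as it did 0 of all genes. Without PMN replicate 1 or PMN replicate 2, 0 were called in PMN livers, where 0.352% of all genes were higher and 0.017% lower without PMN replicate 1 and 0.323% and 0.0227% without PMN replicate 2. In metastasis livers 1 was higher and 4 were lower either way, where 2.13% and 0.954% of all genes were called without PMN replicate 1 and 1.97% and 0.817% without PMN replicate 2. Without metastasis replicate 1, 13 were higher and 18 lower in PMN livers (14.5% and 12% of all genes), and 9 higher and 19 lower in metastasis livers (9.58% and 6.93%). Without metastasis replicate 2, the counts were 14 and 18 in PMN livers (14.4% and 12% of all genes) and 13 and 26 in metastasis livers (17.3% and 15.4%). With only the 2 groups compared in the fit, 13 were higher and 18 lower in PMN livers (16.3% and 14.2% of all genes), but 0 were higher and 3 lower in metastasis livers (1.75% and 0.734%), these being Slc22a29, Slco2b1 and Abcd3.

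**Figure D1:**
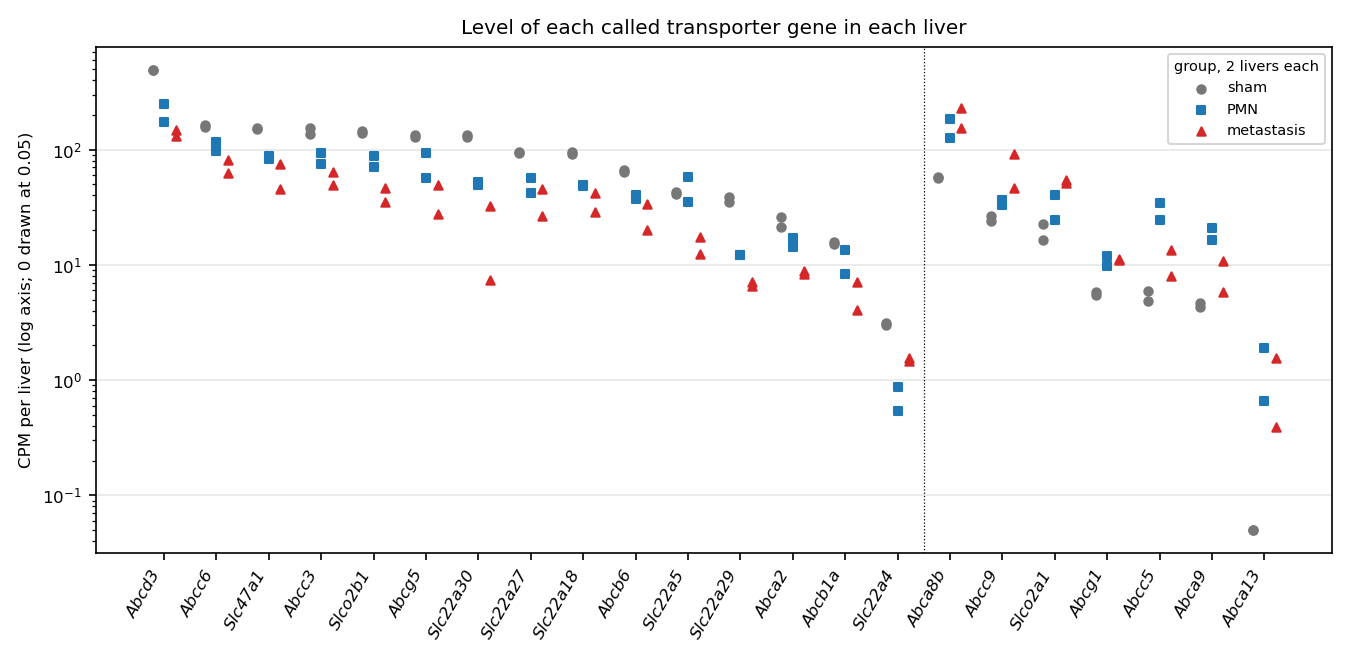
Level of the transporter genes named as called in either comparison with sham. Each point is the CPM of 1 liver on a log axis (a value of 0 is drawn at 0.05), with 2 sham (circles), 2 PMN (squares) and 2 metastasis (triangles) livers per gene; genes left of the dotted line were lower on average in the tumor groups and genes to its right were higher. Abcd3 lies highest among the lower genes, at 489 and 491 CPM in sham and 132 and 149 CPM in metastasis livers.

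The lower genes of the metastasis livers lay mostly among the abundant transporters. Among the 30 tested transporter genes with a mean of at least 10 TPM over the 6 livers, 12 were lower and 2 higher in metastasis than in sham livers, where 8.30% and 5.32% of all genes of that level were called. In PMN livers, 2 of the same 30 were lower and 1 higher, against 5.67% and 4.86% of all genes of that level. Of the 16 transporter genes from 1 to under 10 TPM, 3 were lower and 2 higher in metastasis livers, against 2.46% and 8.79% of all genes of that level, and in PMN livers 0 were lower and 2 higher, against 1.33% and 6.73%. Of the 14 under 1 TPM, Abca13 was called in metastasis livers and the other 13 were not, where 5.43% of all genes of that level were higher and 1.18% lower. In PMN livers Abca13 was higher and Slc22a4 lower, where 2.28% and 0.156% were called. The median log2 fold change of the 30 abundant transporters was -1.12 in metastasis and -0.46 in PMN livers, and that of all genes of this level was -0.10 and -0.16.

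**Figure D2:**
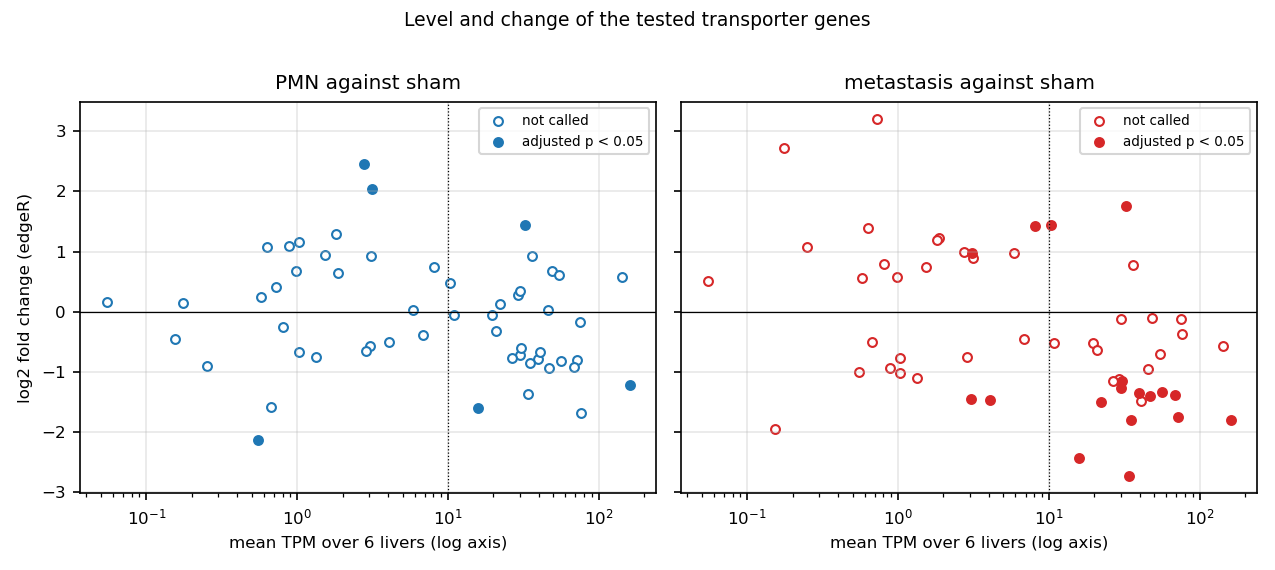
Log2 fold change (edgeR, y axis) of the tested transporter genes against their mean TPM over the 6 livers (log x axis), for PMN against sham (left) and metastasis against sham (right). Filled points passed an adjusted p of 0.05, the dotted line marks 10 TPM, and Abca13 and Slco4c1, with 0 counts in both sham livers, and genes not reported here are not drawn; right of the dotted line 12 genes were lower and 2 higher in metastasis livers.

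The Slc22a genes included the most reduced transporters. In metastasis livers 5 of 16 tested Slc22a genes were lower and 0 higher, and in PMN livers 2 were lower and 0 higher, where 3.95% and 2.38% of all genes were called lower. With an unadjusted p under 0.05, 7 were lower and 0 higher in metastasis livers (13% and 17.2% of all genes), and 5 lower and 0 higher in PMN livers (11.8% and 15.2%). A run of Slc22a genes on chromosome 19, related to organic anion transporters and known from rodents, held Slc22a29, Slc22a30 and Slc22a27 of the genes called lower in metastasis and Slc22a29 of those in PMN livers. Slc22a26 (chr19:7780094-7802667 of GRCm38), Slc22a27 (chr19:7864388-7966517), Slc22a28 (chr19:8061958-8131982), Slc22a29 (chr19:8160168-8253375) and Slc22a30 (chr19:8335371-8405111) lie within 625 kb. The stretches of 200 bases before a RefSeq start of 4 of them (GRCm38.p6, all on the minus strand) are shown. Of these 4, Slc22a27, Slc22a29 and Slc22a30 were called lower in metastasis livers and Slc22a26 was not. Capitals in Slc22a29 and Slc22a30 mark the longest run the pair shares, 31 bases that begin 74 bases before the start of Slc22a29 and 98 bases before that of Slc22a30, and capitals in Slc22a26 and Slc22a27 mark the longest run each shares with Slc22a29, 8 bases in both. They lie at chr19:7802668-7802867 for Slc22a26, chr19:7966028-7966227 for Slc22a27, chr19:8218901-8219100 for Slc22a29 and chr19:8405106-8405305 for Slc22a30. The stretches of Slc22a27 and Slc22a29 fall inside the gene spans given above, so the starts used for them are not the outermost ends.
Slc22a26: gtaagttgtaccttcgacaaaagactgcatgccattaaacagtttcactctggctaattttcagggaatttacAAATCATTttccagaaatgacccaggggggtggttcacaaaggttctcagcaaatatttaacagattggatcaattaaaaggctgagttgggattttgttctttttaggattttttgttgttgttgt
Slc22a27: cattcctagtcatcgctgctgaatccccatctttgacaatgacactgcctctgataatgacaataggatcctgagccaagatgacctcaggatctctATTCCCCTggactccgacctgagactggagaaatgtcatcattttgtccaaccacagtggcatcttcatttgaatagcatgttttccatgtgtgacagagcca
Slc22a29: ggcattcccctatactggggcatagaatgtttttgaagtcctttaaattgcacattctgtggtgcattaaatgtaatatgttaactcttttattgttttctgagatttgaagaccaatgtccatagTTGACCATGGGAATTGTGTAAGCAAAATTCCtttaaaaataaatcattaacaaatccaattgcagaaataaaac
Slc22a30: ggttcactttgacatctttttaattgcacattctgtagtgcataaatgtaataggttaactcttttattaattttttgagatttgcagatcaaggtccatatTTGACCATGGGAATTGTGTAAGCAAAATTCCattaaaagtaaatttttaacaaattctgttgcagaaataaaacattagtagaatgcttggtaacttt
In pairwise alignment, the stretches of Slc22a29 and Slc22a30 were identical at 69.3% of aligned columns, whereas the other pairs of these 4 lay between 47.5% and 54.7%.

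Slc22a29 had the lowest adjusted p of the transporter genes in both comparisons. It was at 38.8 and 35.1 CPM in sham, 12.2 and 12.3 CPM in PMN, and 7.12 and 6.62 CPM in metastasis livers. The 3 groups did not overlap, and the livers of each lay close together. The gene was 3.02-fold lower in PMN livers (log2 fold change -1.60, SE 0.19, edgeR adjusted p = 0.0105) and 5.38-fold lower in metastasis livers (-2.43, SE 0.19, adjusted p = 0.00469). Among the printed stretches, that of Slc22a30 was the closest to that of Slc22a29, while Slc22a28 was not aligned. Slc22a30 was at 130 and 133 CPM in sham, 52.7 and 49.3 CPM in PMN, and 7.35 and 32.3 CPM in metastasis livers. All PMN and metastasis livers lay below the sham livers, but the metastasis livers were far apart. Slc22a30 fell in metastasis livers by 2.73 on the log2 scale (SE 0.63, adjusted p = 0.0439), and its value in PMN livers was -1.37 (SE 0.60, adjusted p = 0.203).

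Of the other genes in the run, Slc22a27 also lay below both sham livers in all PMN and metastasis livers, whereas Slc22a26 did not. Differences between these genes were not tested. Slc22a27 was at 93.4 and 96.2 CPM in sham, 56.5 and 42.0 CPM in PMN and 26.5 and 45.1 CPM in metastasis livers, and was called in metastasis livers only (-1.40, SE 0.30, adjusted p = 0.0376). Slc22a26, the most abundant of the run, was at 240 and 275 CPM in sham, 383 and 385 CPM in PMN, and 123 and 222 CPM in metastasis livers. Its PMN livers lay above the sham livers and its metastasis livers below, and neither comparison passed the test (0.57 and -0.58, both with SE 0.30, adjusted p = 0.278 and 0.257). Slc22a28 was scarce at 0.0292 to 0.345 CPM over the 6 livers. These genes are near copies: of all 50-base stretches in the transcripts, 53.9% of those of Slc22a28, 34.3% of Slc22a30, 29.9% of Slc22a27 and 28.7% of Slc22a29 also occur in another gene, against 6.21% for Slc22a26. How the uniquely aligned reads were split among them was not tested.

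**Figure D3:**
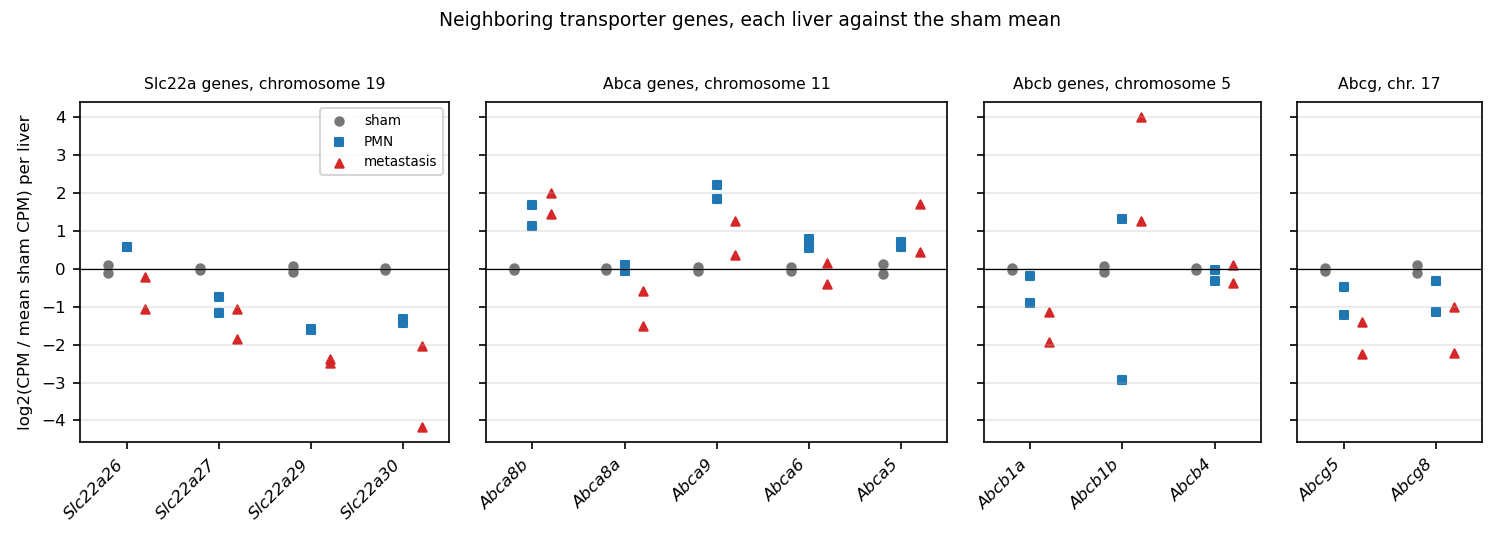
Log2 of CPM in each liver over the mean sham CPM (y axis) for neighboring transporter genes on chromosomes 19, 11, 5 and 17, with 2 livers per group as circles (sham), squares (PMN) and triangles (metastasis). Slc22a29 and Slc22a30 lie below 0 in all PMN and metastasis livers while the PMN livers of Slc22a26 lie above 0, and Abca8b lies above 0 in all of these livers while its neighbor Abca8a lies below 0 in both metastasis livers.

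A second group of Slc22a genes, on chromosome 11, handles carnitine and ergothioneine. Slc22a5 (chr11:53864542-53891796), the sodium-coupled carnitine transporter OCTN2, was at 41.1 and 43.3 CPM in sham, 35.0 and 57.5 CPM in PMN, and 12.4 and 17.5 CPM in metastasis livers. The PMN livers lay on both sides of the sham livers, and the metastasis livers lay below the other 4. It was 2.82-fold lower in metastasis than in sham livers (log2 fold change -1.50, SE 0.30, adjusted p = 0.0314). Slc22a4 (chr11:53983115-54030040), the ergothioneine transporter OCTN1, showed the other order, with 3.01 and 3.12 CPM in sham, 0.535 and 0.866 CPM in PMN, and 1.57 and 1.47 CPM in metastasis livers. It was 4.38-fold lower in PMN livers (-2.13, SE 0.42, adjusted p = 0.0373), and its value in metastasis livers was -1.01 (SE 0.40, adjusted p = 0.153). Slc22a21 between them, which encodes a further carnitine transporter, was at 0.407 to 2.77 CPM over the 6 livers and was not called. Of the 50-base stretches of Slc22a5 and Slc22a21, 26.3% and 22% occur in another gene, mostly in each other.

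Of the remaining Slc22a genes, Slc22a18 was called. This imprinted gene of an organic cation transporter-like protein was at 94.8 and 90.8 CPM in sham, 49.4 and 47.9 CPM in PMN, and 28.7 and 41.9 CPM in metastasis livers, and the groups did not overlap. It was 2.63-fold lower in metastasis livers (-1.39, SE 0.24, adjusted p = 0.0205), and its value in PMN livers was -0.93 (SE 0.23, adjusted p = 0.0641). The organic anion transporter OAT2 gene Slc22a7 differed less: its 6 livers spanned 23 to 38.6 CPM, and the sham livers at 26.9 and 29.7 CPM overlapped the metastasis livers at 28.8 and 23 CPM. Slc22a23, an orphan member, was at 80.9 and 83.9 CPM in sham and 34.2 and 71.8 CPM in metastasis livers and was not called. Slc22a3 (0.810 to 2.61 CPM), Slc22a13b (0.262 to 1.58 CPM), Slc22a15 (2.55 to 9.39 CPM) and Slc22a17 (0.491 to 1.20 CPM) were low and not called, and Slc22a12, the urate transporter of the kidney, had 0 counts in both sham livers.

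Among the Slco genes, Slco2b1 was lower and Slco2a1 higher in metastasis livers, and the other 5 were not called in either comparison. Of all genes, 6.78% were higher and 3.95% lower in metastasis livers and 7.3% were called in PMN livers. Slco2b1, an uptake transporter for steroid sulfates and drugs, was at 139 and 146 CPM in sham, 70.5 and 88.0 CPM in PMN, and 34.8 and 46.6 CPM in metastasis livers, without overlap. It was 3.51-fold lower in metastasis livers (log2 fold change -1.81, SE 0.24, adjusted p = 0.0115) and had a value of -0.85 (SE 0.23, adjusted p = 0.0785) in PMN livers. Slco2a1, the prostaglandin transporter, was at 16.6 and 22.5 CPM in sham, 40.5 and 24.6 CPM in PMN, and 51.2 and 54.4 CPM in metastasis livers. It was 2.70-fold higher in metastasis livers (1.43, SE 0.29, adjusted p = 0.0326). Slco2a1 is known from endothelial cells, and 4 of 8 endothelial markers were higher in each comparison, their sum being 113 and 122 CPM in sham, 271 and 287 CPM in PMN and 368 and 237 CPM in metastasis livers with no marker at 0; their part in the result was not tested.

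Slco1a4, which takes up bile acids and cardiac glycosides, differed widely between the metastasis livers. It was at 238 and 265 CPM in sham, 82.9 and 72.5 CPM in PMN, and 314 and 76.2 CPM in metastasis livers, so that metastasis replicate 1 lay above both sham livers and metastasis replicate 2 among the PMN livers. Its log2 fold change was -1.69 (SE 0.59, adjusted p = 0.133) in PMN and -0.37 (SE 0.58, adjusted p = 0.709) in metastasis livers, and without metastasis replicate 2 the latter became 0.32. Slco1a1, its neighbor on chromosome 6 within 142 kb and known to be male-predominant in mouse liver, was at 0.564 to 4.43 CPM and not called. Slco3a1 (1.87 to 3.66 CPM) and Slco4a1 (0.0493 to 1.13 CPM) were not called either. Slco4c1 had 0 counts in both sham livers, 0.306 and 0.866 CPM in PMN and 3.44 and 0.343 CPM in metastasis livers. Its mean was at least 7.93-fold and 25.6-fold higher than the limit of 3 counts per sham library, but the lower liver of each group was only at least 4.14-fold and 4.65-fold higher. Like Abca13, it entered the test through the tumor livers alone, and it was not called.

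The extrusion transporter gene Slc47a1 was at 151 and 154 CPM in sham, 88.9 and 83.7 CPM in PMN, and 45.8 and 74.6 CPM in metastasis livers. The groups did not overlap. It was 2.54-fold lower in metastasis livers (-1.34, SE 0.27, adjusted p = 0.0310), and its value in PMN livers was -0.82 (SE 0.27, adjusted p = 0.111).

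In PMN livers 3 of 11 tested Abca genes were higher and 0 lower, and in metastasis livers 2 were higher and 1 lower, where 4.92% and 2.38% of all genes were called in PMN and 6.78% and 3.95% in metastasis livers. Abca13 is among the higher genes in both. The family median log2 fold change was 0.67 in PMN and 0.74 in metastasis livers. Abca8b, a plasma membrane lipid transporter of the ABCA6 subgroup, was at 58.2 and 56.2 CPM in sham, 184 and 126 CPM in PMN, and 230 and 155 CPM in metastasis livers. All 4 livers of the tumor groups lay above both sham livers. It was 2.71-fold higher in PMN livers (1.44, SE 0.29, adjusted p = 0.0377) and 3.36-fold higher in metastasis livers (1.75, SE 0.29, adjusted p = 0.0198).

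Abca8b lies at chr11:109932206-109996274 in a run of 5 related genes within 406 kb, and its neighbors went different ways. Abca9 (chr11:110100749-110168274) was at 4.34 and 4.71 CPM in sham, 16.3 and 21 CPM in PMN, and 5.86 and 10.8 CPM in metastasis livers. It was 4.13-fold higher in PMN livers (2.04, SE 0.35, adjusted p = 0.0260), and its value in metastasis livers was 0.89 (SE 0.34, adjusted p = 0.139). Abca8a (chr11:110025634-110097580) was at 169 and 161 CPM in sham, 158 and 176 CPM in PMN, and 58.5 and 111 CPM in metastasis livers, and was not called (adjusted p = 0.974 and 0.104). Abca6 was at 171 and 160 CPM in sham, 284 and 244 CPM in PMN and 184 and 125 CPM in metastasis livers, and Abca5 at 4.39 to 16 CPM over the 6 livers; both missed the threshold. Shared 50-base stretches were at most 2.45% in this run.

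Abca13, a very large transporter gene, had 0 counts in both sham livers. It was at 0.662 and 1.89 CPM in PMN and 1.57 and 0.393 CPM in metastasis livers. Its mean was at least 17.2-fold higher in PMN and at least 13.3-fold higher in metastasis livers than the limit of 3 counts per sham library, and the lower liver of each group was at least 8.96-fold and 5.31-fold higher. As it entered the test through the tumor livers alone, its adjusted p is not given as support, and its calls passed in only 8 and 7 of the 15 alternative settings that tested it: they were lost with the replicate block, on both TPM scales and with any 1 of the PMN or sham livers left out, and in metastasis livers also with only the 2 groups compared. Abca2, a lysosomal lipid transporter, was at 4.39 and 5.35 TPM in sham, 2.52 and 3.21 TPM in PMN, and 1.36 and 1.55 TPM in metastasis livers, without overlap. On the CPM scale of the test it was 2.73-fold lower in metastasis livers (-1.45, SE 0.22, adjusted p = 0.0153). Abca1, which loads cholesterol onto apolipoprotein A-I, was at 134 and 116 CPM in sham, 223 and 253 CPM in PMN and 253 and 174 CPM in metastasis livers; it lay above the sham livers in all 4 and missed the threshold (0.93 and 0.77, adjusted p = 0.0756 and 0.0971). Abca3, a phospholipid transporter best known from lung surfactant, was at 109 and 105 CPM in sham, 127 and 132 CPM in PMN and 35.1 and 62.1 CPM in metastasis livers (adjusted p = 0.578 and 0.0572). Abca7 (3.15 to 7.29 CPM) and Abca17 (0.0309 to 0.407 CPM) were not called, and the retinal Abca4 stayed at or under 0.467 CPM.

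In the Abcb family 0 of 8 genes were called in PMN livers, where 7.3% of all genes were, and Abcb1a and Abcb6 were lower in metastasis livers, where 3.95% were. Abcb1a, which with Abcb1b encodes the drug efflux pump P-glycoprotein of mice, was at 15.8 and 15.2 CPM in sham, 8.35 and 13.5 CPM in PMN, and 4.08 and 7.04 CPM in metastasis livers. It was 2.78-fold lower in metastasis livers (-1.48, SE 0.36, adjusted p = 0.0491). Abcb1b was at 0.443 and 0.498 CPM in sham, 1.17 and 0.0619 CPM in PMN, and 1.14 and 7.58 CPM in metastasis livers, with a log2 fold change of 3.20 (SE 1.27, adjusted p = 0.150) in metastasis livers. These neighbors on chromosome 5 share 22.5% and 12.8% of their 50-base stretches with other genes, mainly with each other. Abcb6, a porphyrin transporter, was at 64.0 and 66.2 CPM in sham, 37.6 and 40.7 CPM in PMN, and 19.9 and 33.9 CPM in metastasis livers (-1.27, SE 0.28, adjusted p = 0.0384 in the latter), and 50% of its 50-base stretches also occur in another gene, mostly in the annotated Gm29253.

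Neither Abcb4, the other gene of the chromosome 5 run, nor Abcb10, Abcb8 and Abcb9 were called. Abcb4, the floppase that places phosphatidylcholine into bile, lay between 128 and 176 CPM in the 6 livers, and the sham livers at 163 and 168 CPM were within the range of the metastasis livers. Its log2 fold changes were -0.17 (SE 0.23, adjusted p = 0.690) and -0.12 (SE 0.23, adjusted p = 0.766). Abcb10, a mitochondrial transporter, was at 27.2 and 26.9 CPM in sham and 16.1 and 21.3 CPM in metastasis livers (-0.53, SE 0.21, adjusted p = 0.143). Abcb8 (14.2 to 23.7 CPM) and the lysosomal peptide transporter gene Abcb9 (0.611 to 2.60 CPM) were not called.

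In the Abcc family 1 of 8 tested genes was higher and 0 lower in PMN livers, and 1 was higher and 2 lower in metastasis livers, against 4.92% and 2.38% of all genes in PMN and 6.78% and 3.95% in metastasis livers. Abcc3, which exports glucuronides into blood, was at 155 and 137 CPM in sham, 75.3 and 93.5 CPM in PMN, and 49.6 and 64.6 CPM in metastasis livers. It was 2.55-fold lower in metastasis livers (-1.35, SE 0.23, adjusted p = 0.0215), and its value in PMN livers was -0.79 (SE 0.23, adjusted p = 0.0902). Abcc6, whose loss causes ectopic calcification, was at 165 and 158 CPM in sham, 116 and 97.2 CPM in PMN, and 62.7 and 81.3 CPM in metastasis livers, and was 2.24-fold lower in the latter (-1.16, SE 0.22, adjusted p = 0.0276). For both genes the 3 groups did not overlap. Abcc2, the canalicular conjugate pump, had its highest values in PMN livers: it was at 150 and 140 CPM in sham, 249 and 193 CPM in PMN, and 82.5 and 94.3 CPM in metastasis livers, and neither comparison with sham passed the test (0.61 and -0.71, both SE 0.22, adjusted p = 0.137 and 0.0858).

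Abcc5, an efflux pump for cyclic nucleotides, had the largest fold change among the genes higher in PMN livers that were counted in sham livers. It was at 5.91 and 4.87 CPM in sham, 34.7 and 24.7 CPM in PMN, and 7.99 and 13.4 CPM in metastasis livers. The metastasis livers lay between the other groups. Abcc5 was 5.51-fold higher in PMN livers (2.46, SE 0.33, adjusted p = 0.0154), and its value in metastasis livers was 0.99 (SE 0.32, adjusted p = 0.0984). Abcc9, the sulfonylurea receptor subunit of potassium channels in vascular smooth muscle and pericytes, was at 24.2 and 26.4 CPM in sham, 33.2 and 36.8 CPM in PMN, and 92.0 and 46.0 CPM in metastasis livers (1.44, SE 0.34, adjusted p = 0.0446 in the latter). This call passed in 7 of 16 alternative settings and was lost without TMM, with the replicate number as a block and on both TPM scales. Markers of stellate cells and fibroblasts, 3 of 8 of which were higher in metastasis livers, summed to 253 and 235 CPM in sham, 290 and 270 CPM in PMN and 390 and 441 CPM in metastasis livers with no marker at 0, and their part in the Abcc9 result was not tested. Abcc1 (0.860 to 2.72 CPM), Abcc4 (3.06 to 9.98 CPM) and Abcc10 (7.26 to 16.1 CPM) were not called, and Abcc12 stayed at or under 0.393 CPM.

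Of the Abcd genes, Abcd3 was lower in both comparisons and 0 were higher in either, where 2.38% of all genes were lower and 4.92% higher in PMN and 3.95% and 6.78% in metastasis livers. Abcd3 (chr3:121758904-121815302) was at 489 and 491 CPM in sham, 172 and 247 CPM in PMN, and 132 and 149 CPM in metastasis livers, without overlap. It was 2.34-fold lower in PMN livers (-1.23, SE 0.24, adjusted p = 0.0370) and 3.48-fold lower in metastasis livers (-1.80, SE 0.25, adjusted p = 0.0132). Abcd2, a peroxisomal fatty acid transporter, was at 96.4 and 120 CPM in sham, 70.0 and 56.2 CPM in PMN, and 36.0 and 61.1 CPM in metastasis livers, with values of -0.78 and -1.15 that missed the threshold (adjusted p = 0.162 and 0.0608). Abcd4, which serves cobalamin export from lysosomes and not peroxisomes, was at 7.42 to 9.52 CPM in 5 livers and 25.3 CPM in metastasis replicate 1, and was not called.

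Of 5 tested Abcg genes, 0 were called in PMN livers (7.3% of all genes), and 1 was higher and 1 lower in metastasis livers (6.78% and 3.95%). Abcg5 (chr17:84658174-84683011) and Abcg8 (chr17:84676302-84700333) together encode the pump that exports cholesterol and plant sterols into bile, and are transcribed in opposite directions. Abcg8 has 2 starts in RefSeq, and the annotated spans of the genes overlap. The 109 bases between the start of Abcg5 and the nearer Abcg8 start (chr17:84683012-84683120 of GRCm38.p6, printed on the minus strand in the direction of Abcg5), shown because Abcg5 is a called gene whose neighbor is its partner subunit, hold a TATAAA in capitals.
Abcg5-Abcg8: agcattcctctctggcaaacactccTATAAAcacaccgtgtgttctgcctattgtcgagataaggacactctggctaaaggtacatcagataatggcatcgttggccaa
Abcg5 was at 128 and 135 CPM in sham, 94.2 and 56.9 CPM in PMN, and 27.7 and 49.8 CPM in metastasis livers. It was 3.40-fold lower in metastasis livers (-1.76, SE 0.36, adjusted p = 0.0336). Abcg8 was at 103 and 120 CPM in sham, 89.0 and 50.6 CPM in PMN, and 23.9 and 55.7 CPM in metastasis livers, with a value of -1.49 (SE 0.45, adjusted p = 0.0851) that missed the threshold. For both genes sham replicate 2, PMN replicate 1 and metastasis replicate 2 were the higher liver of their group. Abcg1, which passes cholesterol from macrophages to lipoproteins, was at 5.44 and 5.84 CPM in sham, 9.68 and 11.9 CPM in PMN, and 11 and 11.2 CPM in metastasis livers. It was 1.96-fold higher in metastasis livers (0.97, SE 0.23, adjusted p = 0.0457) and 1.91-fold in PMN livers, where it missed the threshold (adjusted p = 0.0604). The metastasis call passed in 7 of 16 alternative settings and was lost in the same settings as that of Abcc9. Of 10 macrophage and monocyte markers, 8 were higher in each comparison, with sums of 152 and 155 CPM in sham, 638 and 855 CPM in PMN and 504 and 832 CPM in metastasis livers with no marker at 0, and their part in the Abcg1 result was not tested. Abcg2, an efflux pump for urate and drugs, was at 21.7 to 40.1 CPM over the 6 livers and was not called, nor was Abcg3 (1.70 to 6.62 CPM), and Abcg4 had 0 counts in both sham livers and 1.49 CPM in metastasis replicate 1.

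**Figure D4:**
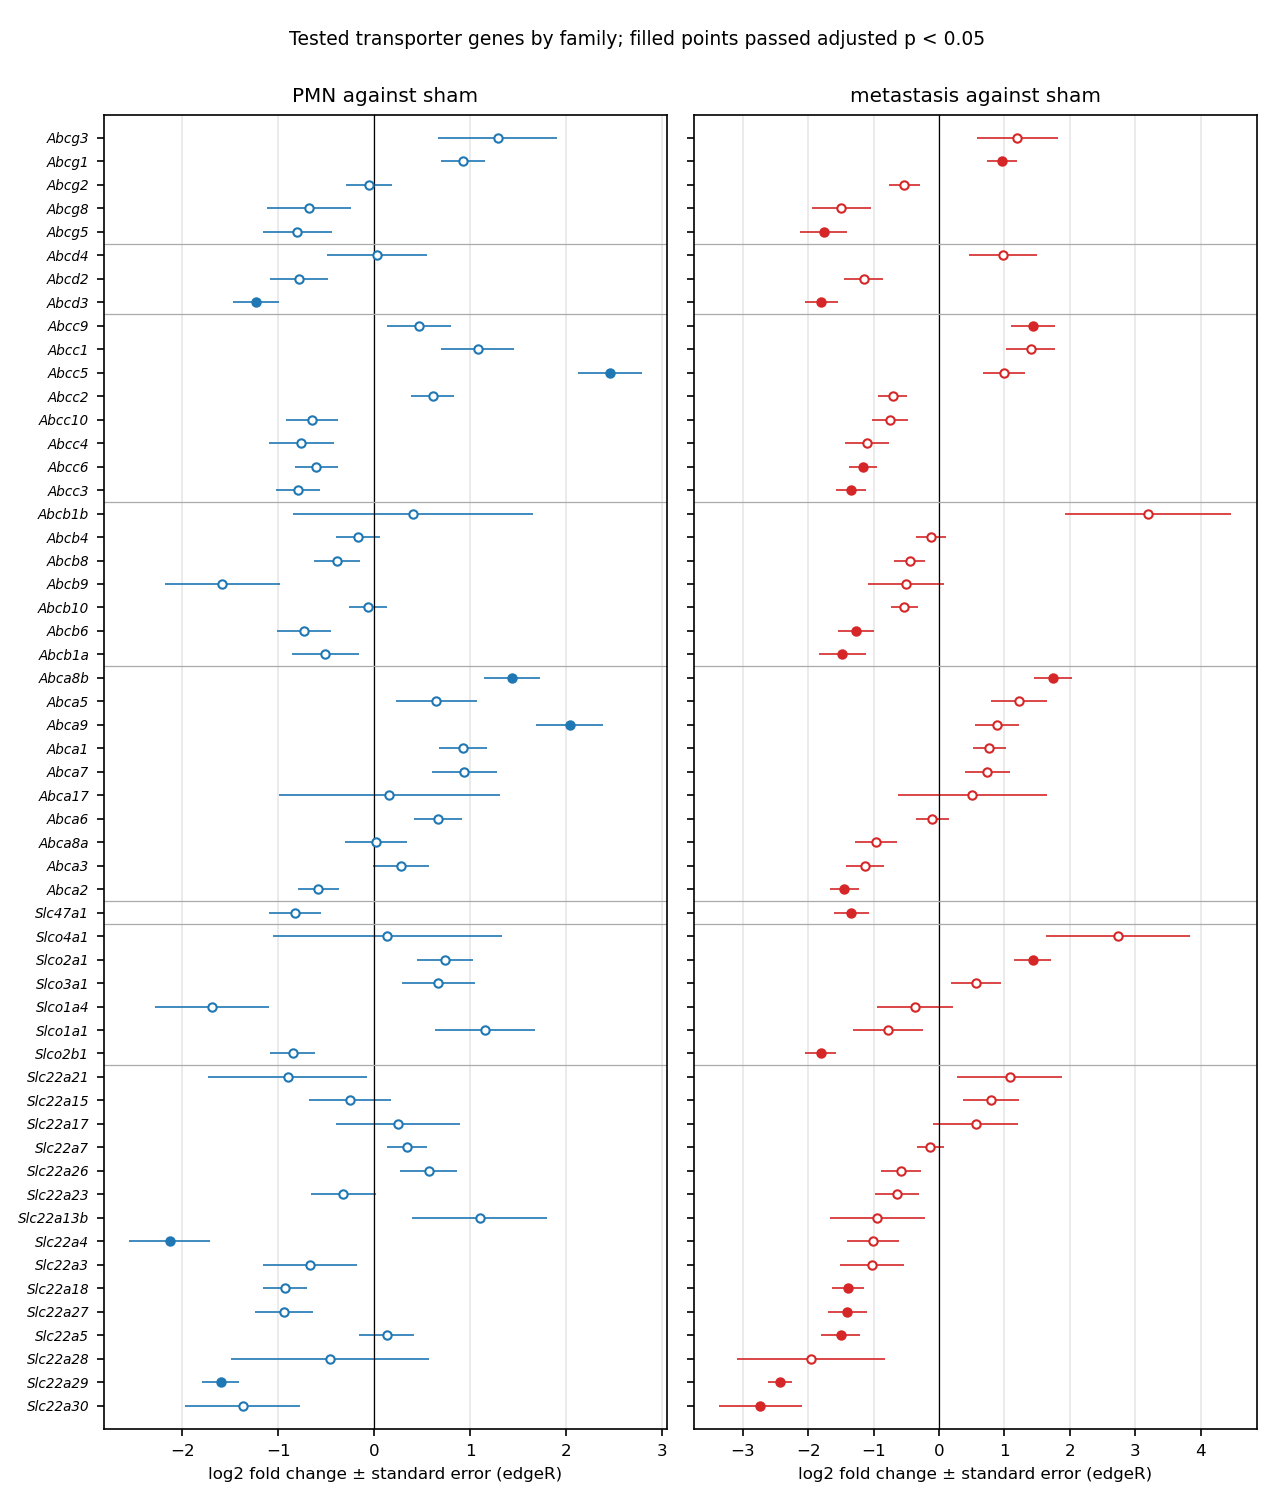
Log2 fold change with its standard error (edgeR, x axis) of the tested transporter genes by family, for PMN against sham (left) and metastasis against sham (right). Filled points passed an adjusted p of 0.05; Abca13 and Slco4c1, with 0 counts in both sham livers, and genes not reported here are not drawn. In metastasis livers filled points of the Slc22a, Abcb and Abcd families lie left of 0, and those right of 0 are Slco2a1, Abca8b, Abcc9 and Abcg1.

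Metastasis and PMN livers were also compared directly. No transporter gene passed the adjusted test in edgeR, nor did any of the 16370 genes (0.0% called), and DESeq2 called 0 transporter genes higher and 8 lower, where it called 1.55% and 1.81% of all genes. With an unadjusted p under 0.05, 4 transporter genes were higher and 17 lower in metastasis than in PMN livers, where 6.99% and 6.41% of all genes were. Both metastasis livers lay above both PMN livers for 7 transporter genes and below them for 27, as did those of 21.9% and 21.5% of all genes. The median log2 fold change was -0.38 for the transporters and 0.03 for all genes. The lowest unadjusted p was that of Abcc2, whose livers at 82.5 and 94.3 CPM lay well below the PMN livers at 249 and 193 CPM (-1.32, SE 0.22, adjusted p = 0.285), followed by Slc22a5 (-1.63, SE 0.30, adjusted p = 0.285). Without metastasis replicate 2, 6 transporter genes were higher and 24 lower, where 7.53% and 9.02% of all genes were called; without metastasis replicate 1 both counts were 0, where 0.137% and 0.176% of all genes were called.

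Nuclear receptors and liver transcription factors known to control these genes were examined as a list of 16, of which all were tested. In edgeR 0 were higher in either comparison, 2 were lower in PMN and 2 in metastasis livers, where 4.92% of all genes were higher and 2.38% lower in PMN and 6.78% and 3.95% in metastasis livers. Nr1i3, the xenobiotic sensor CAR, was at 203 and 134 CPM in sham, 49.2 and 66 CPM in PMN and 57 and 60 CPM in metastasis livers, and was 2.93-fold and 2.89-fold lower (adjusted p = 0.0291 and 0.0241). Cebpa was 3.24-fold lower in PMN livers (-1.70, SE 0.36, adjusted p = 0.0423), and Ppara, the fatty acid sensor known to drive peroxisomal genes, was 2.61-fold lower in metastasis livers (-1.38, SE 0.27, adjusted p = 0.0301), with 243 and 226 CPM in sham and 91.2 and 88.6 CPM in metastasis livers. The other 13, among them Nr1i2, Nr1h4, Nr1h3 and Hnf4a, were not called in either comparison. Hnf4a was at 447 and 361 CPM in sham, 603 and 806 CPM in PMN and 603 and 407 CPM in metastasis livers.

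Of 11 measured genes for partner transporters and the membrane scaffold, Msn, which links membrane proteins to actin in many non-hepatocyte cells, was higher in both comparisons (4.11-fold and 3.74-fold, adjusted p = 0.00702 and 0.00599). In metastasis livers the related Ezr was 3.82-fold higher (adjusted p = 0.0137) and the phospholipid flippase gene Atp8b1 4.30-fold higher (adjusted p = 0.0225). The bile acid uptake transporter gene Slc10a1 was at 696 and 740 CPM in sham, 486 and 475 CPM in PMN and 388 and 429 CPM in metastasis livers, and was 1.76-fold lower in the latter (-0.81, SE 0.20, adjusted p = 0.0491). The other 7 were not called.

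The promoters of the transporters were searched for short motifs on both strands, each counted whether or not it overlapped another. RefSeq windows of 250 bases before to 50 bases after a start (GRCm38.p6) were at hand for 47 of the 64 genes, 56 windows in all. TTCNNNGAA, the STAT-type palindrome, was in 10.7% of these and in 8.30% of all 32851 mouse windows, AGGTCA of nuclear receptors in 16.1% and 16.3%, TTGCNNAA of the C/EBP type in 14.3% and 10.8%, GTTAAT of the HNF1 type in 1.79% and 7.10%, and TATAAA in 16.1% and 13.6%. In the stretches printed above, TTGCNNAA was found before Slc22a29 and Slc22a30, GTTAAT before Slc22a29, AGGTCA before Slc22a27 and TTCNNNGAA before Slc22a26. These are matches of letters and not sites of binding.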

How the data were processed

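RNA from livers of 3 groups (2 each, day 21) was analyzed. The authors aligned reads with HISAT2 2.1.0 to mm10, counted uniquely aligned reads on exons with featureCounts (Subread 2.0.6 in the submitters' processing notes) and deposited raw counts per gene. The authors also deposited TPM values calculated from these counts and gene lengths. The annotation and any strand setting are not given in the sources used here; with counting that ignores strand, reads of a gene and an overlapping antisense gene cannot be told apart. All columns were mapped by name.

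Counts were tested with edgeR 4.0.16 (R 4.3.3): quasi-likelihood test, TMM, filterByExpr (count minimum 10), 1 fit over the 6 livers, Benjamini-Hochberg adjustment over 16370 genes, threshold 0.05, after checking the procedure on simulated data with 200 changed genes. The depth was 32838321 to 43368309 counts per liver. Levels between genes are TPM and differences between livers CPM. Gene coordinates and promoters came from RefSeq, and 50-base stretches from GENCODE's annotation of GRCm38. Settings tried as alternatives were a robust estimate of the spread, DESeq2 1.42.0, limma 3.58.1 on log2(TPM + 1) or on log2(TPM + 0.1), library totals without TMM or a TMM that skips the 100 most abundant genes, keeping all genes or those with 10 counts or more in each liver, a fit of just the 2 groups, a replicate block, and omission of each liver.

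The transporters and all gene lists were chosen with earlier results of these data known. Named were the genes called in any comparison, a list of 36 hepatic transporters, the most abundant member of each family, and called regulators and partners; further members are named to account for the families. A few genes covered by this rule are counted but not reported here by name. Markers of cholangiocytes, erythroid cells, platelets, proliferation and of kidney and intestine were also examined.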

Additional observations from a re-analysis of the deposited data

How the results depend on the processing

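With 2 livers per group, calls moved with what entered the fit. In PMN against sham livers, the counts of higher and lower transporter genes were 7 and 9 with DESeq2 (10% and 6.31% of all genes), 13 and 18 with only the 2 groups compared (16.3% and 14.2%), and 1 and 2 with limma on log2(TPM + 0.1) (2.86% and 2.2%), and over the livers left out they ranged from 0 to 14 and from 0 to 18. In metastasis against sham livers they were 10 and 22 with DESeq2 (11.5% and 8.03%), 0 and 3 with only the 2 groups compared (1.75% and 0.734%), 3 and 19 with library size without TMM (5.12% and 6.81%), 1 and 19 with limma on log2(TPM + 1) (4.0% and 9.99%), and 1 and 14 with limma on log2(TPM + 0.1) (4.45% and 5.63%), with ranges from 0 to 13 and from 0 to 26. In metastasis against PMN livers they were 0 and 8 with DESeq2 (1.55% and 1.81%), with ranges from 0 to 6 and from 0 to 24. Replicate numbers did not pair the livers (correlations of same-numbered deviations -0.0366, 0.109 and 0.0661), and with the replicate block the counts were 3 and 2 (4.11% and 1.58% of all genes), 2 and 14 (5.83% and 3.38%), and 0 and 0 (0.0% and 0.0%). Abcc9 and Abcg1 lost their calls without TMM, under the block and on both TPM scales, Slco2a1 on both TPM scales, Slc22a27 and Slc22a4 under the block, Abca13 under the block and on both TPM scales, and Abca8b, Abca9 and Abcd3 (PMN) and Abcb1a (metastasis) with log2(TPM + 0.1). Over all settings, calls of the named genes passed again 282 times and were lost 132 times, with no reversal, and genes not called stayed so 1005 times, gained a call 106 times and reversed 20 times. Without TMM, with log2(TPM + 1) and with log2(TPM + 0.1), PMN against sham gave -0.24, -0.16 and -0.17 for Abca8a and -0.11, -0.09 and -0.10 for Slc22a5; Abcb1b gave -0.26 with log2(TPM + 0.1). Library size without TMM moved the median of all genes to -0.25 and -0.23, log2(TPM + 0.1) to -0.17 and -0.26. Over the livers left out, PMN against sham ranged from -0.04 to 0.10 for Abca8a, -0.10 to 0.00 for Abcb10, -2.86 to 1.33 for Abcb1b, -0.28 to 0.24 for Abcg2, -1.72 to 0.24 for Slc22a28 and -0.25 to 0.45 for Slc22a5, and metastasis against sham from -0.40 to 0.15 for Abca6, -0.36 to 0.09 for Abcb4, -0.29 to 0.03 for Slc22a7 and -1.72 to 0.32 for Slco1a4. The cause of these shifts was not tested beyond the fewer livers or other scale of each alternative.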

Other observations

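Markers of other cells that the livers could hold were examined beside the transporters. Of 9 listed erythroid markers, 0 were called in PMN and 7 were higher in metastasis livers, with sums of 312 and 448 CPM in sham, 475 and 325 CPM in PMN and 1883 and 1288 CPM in metastasis livers. Of 10 proliferation genes, 2 were higher in PMN and 6 in metastasis livers (18.6 and 10.5, 34.5 and 40.5, and 93.1 and 82.5 CPM). Of 6 platelet markers, 3 and 4 were higher (3.55 and 3.58, 15.0 and 31.6, and 32.9 and 38.0 CPM). Of 5 listed cholangiocyte markers, 0 and 1 were higher, and their sums were 15.2 and 19.5, 65.4 and 98.5, and 23.6 and 185 CPM. Most of each sum was Spp1 (13.7 and 16.7, 63.1 and 96.2, and 19.6 and 180 CPM), while Krt7, Krt19 and Epcam stayed under 1 CPM in all 6 livers. Of 8 markers of kidney and intestine, 2 were listed and 0 called. The part of these cells in the transporter values was not tested.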
